A study of Mus musculus with 4 samples.

Results

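The genes described here encode the 5 complexes of the mitochondrial respiratory chain. They were taken from the gene table by their symbols, namely the Ndufa, Ndufb, Ndufc, Ndufs and Ndufv genes of complex I, Sdha to Sdhd of complex II, the Uqcr genes of complex III, the Cox4 to Cox8 genes of complex IV, the Atp5 genes of complex V and the mitochondrial mt-Nd, mt-Co, mt-Cytb and mt-Atp genes. Symbols marked as pseudogenes by "-ps" were left out. This gave 101 of the 55418 symbols in the table, 88 of them nuclear and 13 mitochondrial. The rule follows names, so it also took up Ndufa4l2, Cox7a2l and Atp5s, which are not counted as structural subunits, and it left out Ndufab1, Cyc1, Cycs and some other partners of the chain. Ndufb4c, Ndufa11b, Ndufs6b and Cox6c2, which were also taken up, have no annotated coding sequence.

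RNA-seq was done on the mouse ESC line E14, for which the labels give the strain as 12910la, and which was grown in serum medium with LIF on gelatin. The WT group holds 2 samples of unedited cells. The Pim3-/- group holds 2 clones in which the gene of the kinase PIM3 was targeted by CRISPR/Cas9 with guides against exon 4 and exon 6. Each clone gave 1 library, and which replicate number stands for which clone is not given in the sources used here, so the genotype, the clone and the culture cannot be told apart.

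Complexes I to IV pass electrons from NADH and succinate to oxygen and, except for complex II, pump protons across the inner mitochondrial membrane. Complex V, the ATP synthase, lets the protons flow back and makes ATP. Most subunits are encoded in the nucleus and imported, while a small catalytic core of complexes I, III, IV and V is encoded by mitochondrial DNA. ESCs draw much of their ATP from glycolysis and keep mitochondria that are simple in form, and the factors NRF-1 and GABPA are known to bind near the starts of many nuclear respiratory genes.

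The promoter windows of RefSeq (assembly GRCm38.p6), from 250 bases before to 50 bases after the gene start, were found for 65 of the 83 nuclear genes that could be tested. The letters GCGCATGC, the core of the NRF-1 motif, stood in 10 of these 65 windows (15.4%), against 2.80% of all 27025 windows. CCGGAAG, the core to which GABPA and other ETS factors bind, stood in 15 (23.1%) against 9.12%. The longer motif known from YY1 stood in 4 (6.15%) against 0.899%, and TGACGTCA, known from CREB, in 4 (6.15%) against 1.88%. ACGTG, the core of the hypoxia response element, stood in 15 (23.1%) against 19.7%. Both strands were searched, several motifs can fall in 1 window, and a match is only a run of letters. The 4 genes whose GCGCATGC lay before the gene start of both RefSeq and GENCODE are printed below as examples of what these promoters hold. Each is written 5′ to 3′ on the strand of its gene. The stretches end before the first transcribed base, and the capitals mark GCGCATGC or CCGGAAG on either strand. They cover chr9:44920743-44920992 on the - strand, chr5:115348982-115349208 on the - strand, chr17:56717512-56717761 on the + strand and chr15:82354323-82354541 on the - strand.
Atp5l: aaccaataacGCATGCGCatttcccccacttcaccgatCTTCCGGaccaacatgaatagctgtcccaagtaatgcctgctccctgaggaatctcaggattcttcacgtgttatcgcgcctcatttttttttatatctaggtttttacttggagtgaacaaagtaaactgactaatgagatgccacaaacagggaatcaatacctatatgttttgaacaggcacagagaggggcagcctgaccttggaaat
Cox6a1: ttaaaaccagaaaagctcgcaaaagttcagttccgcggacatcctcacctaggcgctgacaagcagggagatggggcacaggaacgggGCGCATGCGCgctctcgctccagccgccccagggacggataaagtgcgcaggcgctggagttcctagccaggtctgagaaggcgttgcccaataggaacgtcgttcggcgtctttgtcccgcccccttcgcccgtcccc
Ndufa11: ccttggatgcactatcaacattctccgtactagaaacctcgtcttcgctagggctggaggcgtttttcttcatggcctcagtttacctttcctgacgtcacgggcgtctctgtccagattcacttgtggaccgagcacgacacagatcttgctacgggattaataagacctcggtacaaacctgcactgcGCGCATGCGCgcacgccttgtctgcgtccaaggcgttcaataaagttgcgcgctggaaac
Ndufa6: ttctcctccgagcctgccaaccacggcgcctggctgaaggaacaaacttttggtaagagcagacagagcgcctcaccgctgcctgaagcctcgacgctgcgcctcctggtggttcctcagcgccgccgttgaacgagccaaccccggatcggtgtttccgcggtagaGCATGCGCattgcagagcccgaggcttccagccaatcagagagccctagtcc
In Cox6a1 and Ndufa11 the letters form GCGCATGCGC, which reads the same on both strands. All 4 of these genes had lower counts in the Pim3-/- libraries at the threshold used below, and 8 of the 10 genes with GCGCATGC and 13 of the 15 with CCGGAAG did so, among 52 of the 65 genes with a window.

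The libraries held 23156247 and 25668307 counts in WT and 22892949 and 22029427 counts in the libraries labelled Pim3-/-. Pim3 itself had 4392 and 4953 counts in WT and 4970 and 4804 counts in the others, so its count does not test the labels. TMM factors were 0.828 and 0.883 for WT and 1.17 for both Pim3-/- libraries. With them the 18444 tested genes had a median of 0.07 on the log2 scale, and with library totals alone one of 0.52, which raises each gene by about 0.45. Levels are given as CPM, counts per scaled library size, and their log2 values correlated across genes at 0.985 within WT, 0.966 within Pim3-/- and 0.921 to 0.939 across the groups. Of 10 pluripotency markers 0 were without counts, 4 were lower and 1 was higher at the threshold used below, and their summed level was 9810 to 10883 CPM in WT and 6731 to 7114 CPM in Pim3-/- ESCs. Of the 10, 5 lay below 0 and 5 above. Pou5f1, the lowest, stood at 2356 and 2138 CPM against 1104 and 957 CPM, and Klf4, which passed as higher, at 62.9 and 66.6 CPM against 185 and 165 CPM. Nanog passed as lower too, with 945 and 934 CPM against 553 and 456 CPM. By qPCR the study found Nanog higher in Pim3-/- ESCs and Oct4, the product of Pou5f1, not disrupted. This difference from the study was not tested. Dppa5a made up 4402 and 3530 CPM of the sum in WT and 2080 and 1979 CPM in Pim3-/- ESCs. Among all tested genes 16.2% passed as lower and 17.6% as higher. Primitive endoderm markers passed as higher in 7 of 8 tested genes, with a sum of 389 to 395 CPM in WT and 414 to 434 CPM in Pim3-/- ESCs and 0 of 9 without counts. Most of this sum was Sparc, with 359 and 358 CPM in WT against 276 and 314 CPM in Pim3-/- ESCs. It was the 1 tested marker below 0 (-0.28), so the sum does not show the rise of the others. Markers of 2-cell-like cells passed as higher in 8 of 9, or 6 in DESeq2, with sums of 15.0 and 19.9 CPM against 50.7 and 179 CPM and 0 of 9 without counts. Trophoblast markers summed to 139 to 140.1 CPM and 111 to 141 CPM, with 2 of 7 tested genes higher, or 1 in DESeq2. With WT replicate 1 or 2 left out, 0 and 1 primitive endoderm markers passed as higher, and 0 of the 2-cell-like, trophoblast and pluripotency markers passed in edgeR's test. At an unadjusted p under 0.05, 6 and 7 primitive endoderm and 9 and 8 of the 2-cell-like markers were higher. Fibroblast markers summed to 22.3 to 27.2 CPM, of which Thy1 made up 18.2 to 20.9 CPM. The collagen genes Col1a1, Col6a1 and Col6a2 lay at 0.265 to 5.25 CPM, with log2 fold changes of 1.09, 1.17 and 1.33 and no overlap. Of the 9 markers 1 had no counts at all, and 0 of 4 tested genes passed edgeR's test (1 at an unadjusted p under 0.05, 0 in DESeq2, 2 as higher with library totals). The part of these markers in the results below was not tested. In bulk RNA, fewer cells of a type and less RNA per cell cannot be told apart.

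No count stood on the mitochondrial genes. The 13 mitochondrial mRNAs of complexes I, III, IV and V, which code for the core of the proton pumps and of the proton channel, were listed at 0 in all 4 libraries. So were the 2 ribosomal RNAs and the 22 transfer RNAs, which makes 37 rows in all. These transcripts are among the most abundant in growing cells, and how their rows came to be at 0 is not given in the sources used here. No level, ratio or comparison of mitochondrial with nuclear genes was taken from them. Counts stood instead on nuclear copies of mitochondrial DNA. Of the 15 annotated copies that matched a mitochondrial mRNA over at least 200 bases with at least 90% identity, 11 had counts, and 7 of the 15 lie side by side on chromosome 1. Gm28661, at chr1:24614885-24615565, matched mt-Co2 at 100% and had raw counts of 708 and 526 in WT against 272 and 815 in Pim3-/- ESCs. Gm10925, at chr1:24613974-24614651, matched mt-Atp6 at 100% and had raw counts of 666 and 712 against 336 and 590. Over the 15 copies the sums were 2830 and 2857 in WT against 1255 and 2511 in Pim3-/- ESCs. Calls were counted only for a list of 6 of these copies. The list left out Gm10222, with raw counts of 370 and 437 against 178 and 154, and Gm13340, with 55 and 75 against 24 and 105. Of the 6 listed copies 3 passed as lower, against 16.2% of all tested genes. Gm28438, a copy of mt-Nd3, was the lowest of the 6 at -1.89. When WT replicate 1 or 2 was left out, 0 of the 6 copies passed in edgeR's test (2 and 3 at an unadjusted p under 0.05), and without Pim3-/- replicate 2 all 6 did, with medians of -0.87 over all libraries, -0.42 without Pim3-/- replicate 1 and -1.61 without replicate 2. The Pim3-/- libraries were below WT in the sum, but they differed from each other by more than replicate 2 differed from WT, and reads of identical copies cannot be assigned to the nucleus or to the mitochondrion.

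Nuclear respiratory chain genes were lower in the libraries labelled Pim3-/- in nearly all cases. Of the 88 nuclear genes, 83 passed the filter on low counts, and 79 of these were below 0 on the log2 scale, as were 47% of all tested genes, and 4 above. The filter keeps a gene with enough counts in either group. In edgeR's quasi-likelihood test, with p-values adjusted after Benjamini and Hochberg over all tested genes, 62 of the 83 (74.7%) passed an adjusted p of 0.05 as lower, against 16.2% of all tested genes. As higher, 2 passed, against 17.6%, and in either direction 33.8% of all genes did. The 2 exceptions were Ndufa4l2 and Cox4i2, and 19 genes did not pass. In 77 of the 83, both Pim3-/- libraries lay below both WT libraries in CPM, as in 34.2% of all genes, and in 2 both lay above, as in 38.3%. The median log2 fold change was -0.94, which is -1.01 relative to the median of all genes, and 36 of the 83 were at least 2-fold lower, as were 9.53% of all genes. All the nuclear genes together took up 2.01% and 1.87% of the counts in WT, against 1.72% and 1.44% in Pim3-/- ESCs.

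These numbers of calls depended on the scaling and on the WT libraries. With library totals, 25 genes passed as lower, against 5.92% of all genes, and 2 as higher, against 35.8%, while 65 of the 83 were still below 0 and the median relative to all genes was again -1.01. Without WT replicate 1, 0 genes passed as lower and without WT replicate 2, 1 gene did, although 45 and 60 were lower at an unadjusted p under 0.05. With one of these libraries left out the remaining WT library was assumed to vary like the Pim3-/- pair, and only 5 and 105 of all genes passed as lower. The 1 gene was of complex V, so all calls as lower given below for the other complexes were lost when either WT library was left out. Without Pim3-/- replicate 1 or 2 the median of the 83 genes was -1.05 and -0.81, beside 0.06 and 0.05 for all tested genes. The remaining Pim3-/- library was then assumed to vary like the WT pair. The 62 genes stayed below 0 in each of these settings.

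**Figure D1:**
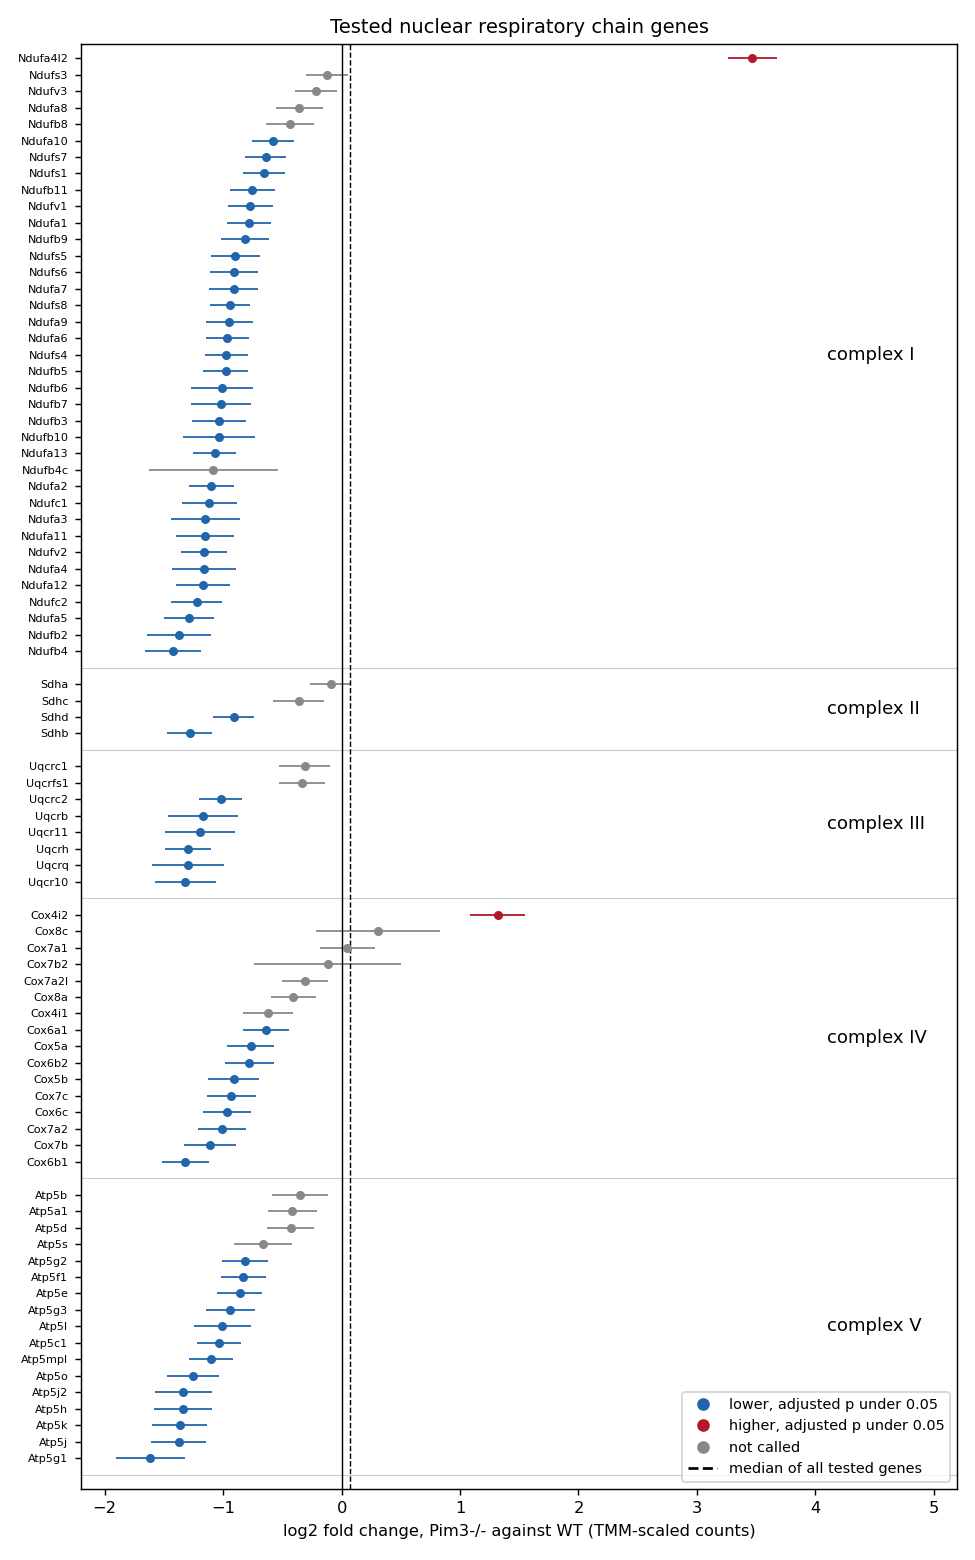
The log2 fold change of the tested nuclear genes, 1 of the 83 not drawn (x axis, TMM-scaled counts, Pim3-/- against WT, 2 libraries each) is shown by complex, with bars of 1 SE and colours for the call at an adjusted p of 0.05. The dashed line is the median of all genes, 0.07, and the genes called lower lie left of it, while only Ndufa4l2 (3.47) and Cox4i2 (1.32) were called higher.

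Replicates also differed from each other in these genes. Of the 83, 81 were lower in WT replicate 2 than in WT replicate 1, by a median of -0.26 on the log2 scale, and 68 were lower in Pim3-/- replicate 2 than in replicate 1, by -0.32. The differences between a WT and a Pim3-/- library were larger, with medians from -0.68 to -1.13. Of the 4 possible pairs of a WT and a Pim3-/- library, each had 78 to 80 of the 83 genes lower in the Pim3-/- library.

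Complex I, the NADH dehydrogenase that opens the chain, had 38 tested genes. Of these 32 passed as lower, against 16.2% of all tested genes, and Ndufa4l2 as higher, against 17.6%. The median of the 38 was -0.97. At a mean log2 CPM of 6 to 8, where 51 of the 83 genes of the chain lay, 39.1% of all genes passed as lower. Ndufb4, an accessory subunit of the membrane arm, stood lowest. It had 219 and 178 CPM in WT against 87.97 and 59.7 CPM in Pim3-/- ESCs, or 198 ± 29.4 CPM in WT and 73.8 ± 19.99 CPM in Pim3-/- ESCs (SD, n = 2), with no overlap (log2 fold change -1.42, SE 0.23, adjusted p = 0.00646 in edgeR's quasi-likelihood test). Ndufa4, which was first assigned to complex I and is now counted with complex IV, was the most abundant in CPM, with 469.9 and 397 CPM against 244 and 143 CPM. Its 2 Pim3-/- libraries lay far apart, but both were below WT (log2 fold change -1.16, SE 0.27, adjusted p = 0.0174 in the same edgeR test). Ndufa7, an accessory subunit, had 363 and 299 CPM against 197 and 154 CPM. It was lower without overlap, at a log2 fold change of -0.91.

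Core and accessory subunits of complex I were both mostly lower. The 7 nuclear core subunits belong to the conserved arm that takes up NADH and holds the flavin and the iron-sulfur clusters. Of the 7, 6 passed as lower, against 16.2% of all tested genes, with a median of -0.66. Ndufv2, of the NADH-oxidising module, was lowest at -1.16. Ndufs3, of the quinone module, did not pass, with 90.03 and 77.5 CPM against 83.4 and 70.4 CPM and a log2 fold change of -0.12 that became 0.33 with library totals. Its groups overlapped. The 30 other genes by name are called accessory here and include Ndufa4 and Ndufb4c, which has no annotated coding sequence. Of these, 26 passed as lower, against 16.2% of all tested genes, with a median of -1.02. Ndufv3, Ndufa8, Ndufb8 and the weakly counted Ndufb4c did not pass. With a trend on transcript length taken out, as described below, the medians were -0.43 for the core and -0.51 for the accessory genes. Set against the core within each library, the summed accessory counts went from 381% and 352% in WT to 339.9% and 292% in Pim3-/- ESCs. Both Pim3-/- values lay below both WT values, a log2 difference of -0.22 that was not adjusted for transcript length. With 2 libraries against 2 the two-sided exact permutation test cannot give less than p = 0.333, the value found here, so this difference could not be called.

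Complex II, succinate dehydrogenase, is the one complex without mitochondrially encoded subunits and also works in the TCA cycle. Its 4 subunits differed from each other, and 2 of them passed as lower. Among all tested genes 16.2% did so, or 39.1% of those at a mean log2 CPM of 6 to 8. Sdhb, the iron-sulfur subunit, had 218 and 198 CPM in WT against 94.7 and 76.2 CPM in Pim3-/- ESCs, a clear gap between the groups (log2 fold change -1.28, SE 0.19, adjusted p = 0.00525 in edgeR's quasi-likelihood test). Sdhd, a membrane anchor, had 210.2 and 179.8 CPM against 107 and 101 CPM and passed as lower too, at -0.91. Sdhc, the other anchor, had 169 and 153 CPM against 147 and 103 CPM and did not pass at -0.36, or 0.09 with library totals (adjusted p = 0.216 in edgeR's test). Sdha, the flavoprotein that oxidises succinate, hardly differed, with 247 and 263 CPM against 237 and 243 CPM. Its log2 fold change of -0.09 (SE 0.17, adjusted p = 0.71 in edgeR's test) became 0.36 with library totals. Summed over all other tested genes of the chain, counts came to 9740.0% and 7944% of those of Sdha in WT and to 6126% and 4955% in Pim3-/- ESCs, a log2 difference of -0.68. This ratio needs no scaling between libraries, but it was not adjusted for transcript length. Since Sdha hardly differed, the ratio restates the lower values of the other genes and is no separate support.

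Complex III, which passes electrons from ubiquinol to cytochrome c, had 8 tested genes, all lower, with a median of -1.18. Of these 6 passed, against 16.2% of all tested genes. The small supernumerary subunits were the lowest. Uqcr10 had 241 and 201 CPM in WT against 109.9 and 66.8 CPM in Pim3-/- ESCs, and Uqcrq had 308 and 247 CPM against 148 and 77.9 CPM. In both, each Pim3-/- library lay below each WT library, with replicate 2 lowest (log2 fold change -1.32, SE 0.26, adjusted p = 0.0101 for Uqcr10 in edgeR's quasi-likelihood test). The core pair differed, with Uqcrc2 at 406 and 364 CPM against 189.7 and 189 CPM and Uqcrc1 at 413 and 379 CPM against 368 and 269 CPM. Uqcrc2 passed as lower (-1.02), whereas Uqcrc1 had -0.31 and the Rieske iron-sulfur protein Uqcrfs1 -0.33, and neither passed. Both of these values changed sign with library totals, to 0.14 and 0.12.

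Complex IV, cytochrome c oxidase, reduces oxygen to water, and several of its nuclear subunits exist as isoforms of different tissues. Of 16 tested genes 9 passed as lower, against 16.2% of all tested genes, and Cox4i2 as higher, against 17.6%, with a median of -0.70. Above a mean log2 CPM of 8, 52.9% of all genes passed as lower. Cox6b1, the ubiquitous form of a subunit on the cytochrome c side, had 349 and 284 CPM in WT against 137 and 117 CPM in Pim3-/- ESCs and the lowest log2 fold change of the complex (log2 fold change -1.32, SE 0.20, adjusted p = 0.00534 in edgeR's quasi-likelihood test). Cox7c was the most abundant, with 889 and 719 CPM against 446 and 398 CPM, and passed as lower (-0.93). Cox4i1, the ubiquitous regulatory subunit, had 707 and 592 CPM against 468 and 377 CPM and just missed the threshold, at -0.62 with an adjusted p of 0.0557 in edgeR's test and from 3.12e-05 to 0.714 over its alternatives. Cox8a had 507 and 432 CPM against 371 and 337 CPM and did not pass, at -0.41, or 0.05 with library totals. Groups of neither gene overlapped. Cox7a2l, which joins complexes III and IV into larger assemblies, had 247 and 206 CPM against 167 and 199 CPM and did not pass, at -0.31, or 0.15 with library totals.

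Ndufa4l2 and Cox4i2 were the only tested genes of the chain that passed as higher. Ndufa4l2 is a paralog of Ndufa4 and Cox4i2 an isoform of Cox4i1, and both are known as genes that respond to low oxygen in other cells. Ndufa4l2, at chr10:127514967-127517154, + strand in GENCODE's annotation of GRCm38, had raw counts of 234 and 288 in WT against 3190 and 4028 in Pim3-/- ESCs, which is 12.5 ± 0.353 CPM in WT and 138 ± 25.97 CPM in Pim3-/- ESCs (SD, n = 2). The groups were far apart, an 11.1-fold difference (log2 fold change 3.47, SE 0.21, adjusted p = 0.000808 in edgeR's quasi-likelihood test). It passed in every alternative, with an adjusted p of 0.0307 and 0.0297 when WT replicate 1 or 2 was left out. Cox4i2, at chr2:152754173-152765037, + strand, had raw counts of 137 and 130 in WT against 446 and 397 in Pim3-/- ESCs, which is 6.45 ± 0.999 CPM in WT and 16.1 ± 0.926 CPM in Pim3-/- ESCs (SD, n = 2). The groups did not overlap (log2 fold change 1.32, SE 0.23, adjusted p = 0.00759 in the same edgeR test). Without WT replicate 1 or 2 its adjusted p in that test was 0.0942 and 0.109.

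Ratios of an isoform to its partner within a library need no scaling between libraries. Ndufa4l2 had 2.60% and 3.21% of the counts of Ndufa4 in WT, and 49.0% and 109% in Pim3-/- ESCs. In Pim3-/- replicate 2 it thus exceeded Ndufa4. The log2 ratio rose by 4.66 between the group means, and by 4.08 to 5.24 with 1 library left out. Cox4i2 had 1.01% and 0.969% of the counts of Cox4i1 in WT, against 3.57% and 4.09% in Pim3-/- ESCs, a log2 difference of 1.95. Cox4i1 thus remained by far the main form. In both ratios the groups did not overlap, but p = 0.333 is the smallest that an exact permutation test allows at this size.

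**Figure D2:**
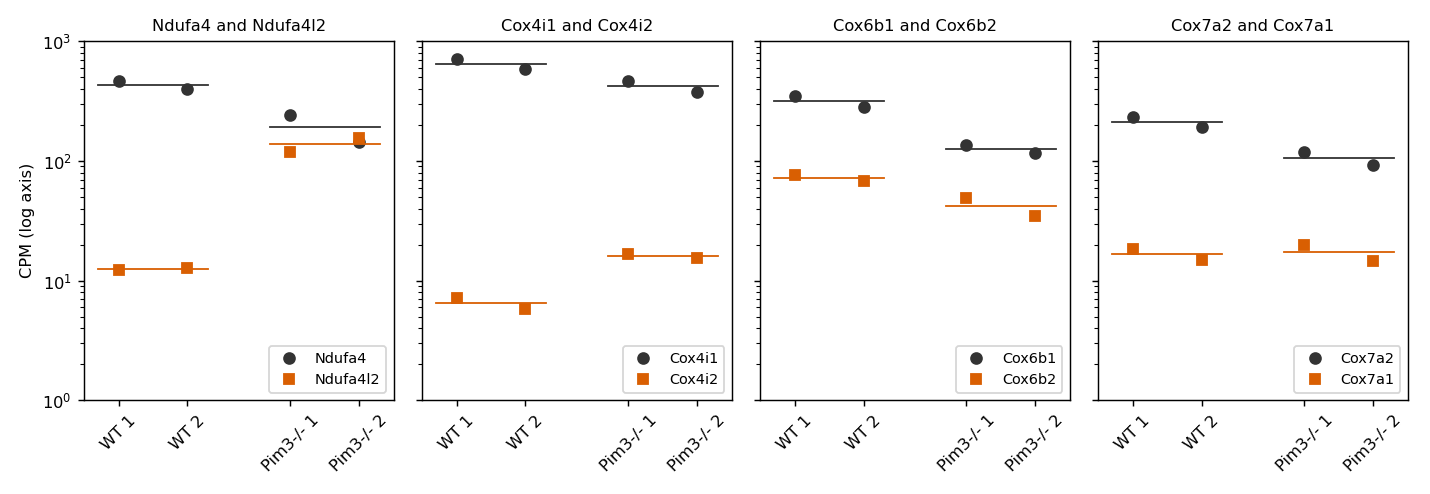
CPM (log axis) of 4 isoforms and their partners is shown in the 2 WT and 2 Pim3-/- libraries, with a point per library and a line at each group mean. Ndufa4l2 rises from 12.5 to 138 CPM on average while Ndufa4 falls from 433 to 194 CPM, and Cox4i2 rises from 6.45 to 16.1 CPM and stays below Cox4i1.

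None of the other tissue isoforms of complex IV passed as higher, though Cox6b2 and Cox7a1 rose relative to their partners. Cox6b2, known from testis, had 76.7 and 68.01 CPM against 49.3 and 34.95 CPM and passed as lower (log2 fold change -0.78, SE 0.21, adjusted p = 0.0248 in edgeR's quasi-likelihood test). Its counts were 21.97% and 23.9% of those of Cox6b1 in WT and 36.1% and 29.9% in Pim3-/- ESCs. Cox7a1, the form of heart and skeletal muscle, had 18.5 and 14.8 CPM against 19.9 and 14.5 CPM with overlapping groups, a log2 fold change of 0.05 that did not pass. Relative to Cox7a2, which passed as lower at -1.01, it went from 7.87% and 7.77% to 16.8% and 15.6%. The testis forms Cox8c and Cox7b2 had 9 to 41 counts per library and overlapping groups. The muscle forms Cox6a2, with 5, 2, 16 and 4 counts, and Cox8b, with 0, 0, 0 and 2 counts in the order WT 1, WT 2, Pim3-/- 1 and Pim3-/- 2, were too low to test. The same held for Ndufs6b (0, 0, 4 and 1), Ndufa11b (0, 2, 0 and 1) and Cox6c2 (0 in all 4), where a count of 0 allows up to 3 counts, or 0.157 CPM in WT replicate 1, for counting error only.

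Complex V, the ATP synthase, had 17 tested genes, all lower, with a median of -1.01. Of these 13 passed, against 16.2% of all tested genes. The F1 head, which makes ATP in the matrix, holds the subunits alpha, beta, gamma, delta and epsilon. Of these 5 genes 2 passed, Atp5c1 (-1.03) and Atp5e (-0.86), and the median of the 5 was -0.43. At a mean log2 CPM of 6 to 8, 39.1% of all genes passed as lower, and above 8, 52.9%. Atp5b, the catalytic beta subunit, was the gene with the most counts of the whole chain, raw counts of 60644 and 69749 in WT against 73394 and 55135 in Pim3-/- ESCs. Scaled, this was 3167 and 3080.3 CPM against 2749.9 and 2139 CPM, so that the groups did not overlap but lay close (log2 fold change -0.35, SE 0.24, adjusted p = 0.276 in edgeR's quasi-likelihood test). Atp5a1, the alpha subunit, had 1619.9 and 1572 CPM against 1255 and 1138 CPM and did not pass either (-0.42). Atp5d, the delta subunit, was at -0.43 and did not pass. With library totals these 3 genes stood slightly above 0, at 0.10, 0.04 and 0.02.

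The membrane part and the stalk of the ATP synthase were lower throughout. All 11 genes outside the head passed, against 16.2% of all tested genes, with a median of -1.26. With library totals 7 of them passed as well, against 5.92%. With a trend on transcript length taken out, as described below, the medians were -0.73 for these 11 genes and -0.36 for the head. The 11 are the 3 genes of subunit c, the peripheral stalk genes Atp5f1, Atp5h, Atp5j and Atp5o, and the small membrane subunits Atp5j2, Atp5k, Atp5l and Atp5mpl. Atp5o, which joins the stalk to the head, had 583 and 494 CPM against 257 and 193 CPM, and Atp5j, of the stalk, had 246 and 209.6 CPM against 106 and 70.1 CPM. Both groups were clearly apart, at log2 fold changes of -1.26 and -1.38. Atp5f1, subunit b of the stalk, was the most abundant after Atp5b and Atp5a1, with 627 and 577 CPM against 359.5 and 319 CPM and a log2 fold change of -0.83. Relative to the summed counts of Atp5a1 and Atp5b in the same library, the other 14 subunit genes had 118% and 103% in WT against 68.5% and 69.0% in Pim3-/- ESCs, a log2 difference of -0.68 that ran from -0.78 to -0.58 with 1 library left out. The 4 values did not overlap between the groups, and the exact two-sided permutation p was again 0.333, the smallest possible. Atp5s, a coupling factor that is no stable subunit, had 8.83 and 8.26 CPM against 5.25 and 5.51 CPM and did not pass (-0.67, adjusted p = 0.0701 in edgeR's test).

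**Figure D3:**
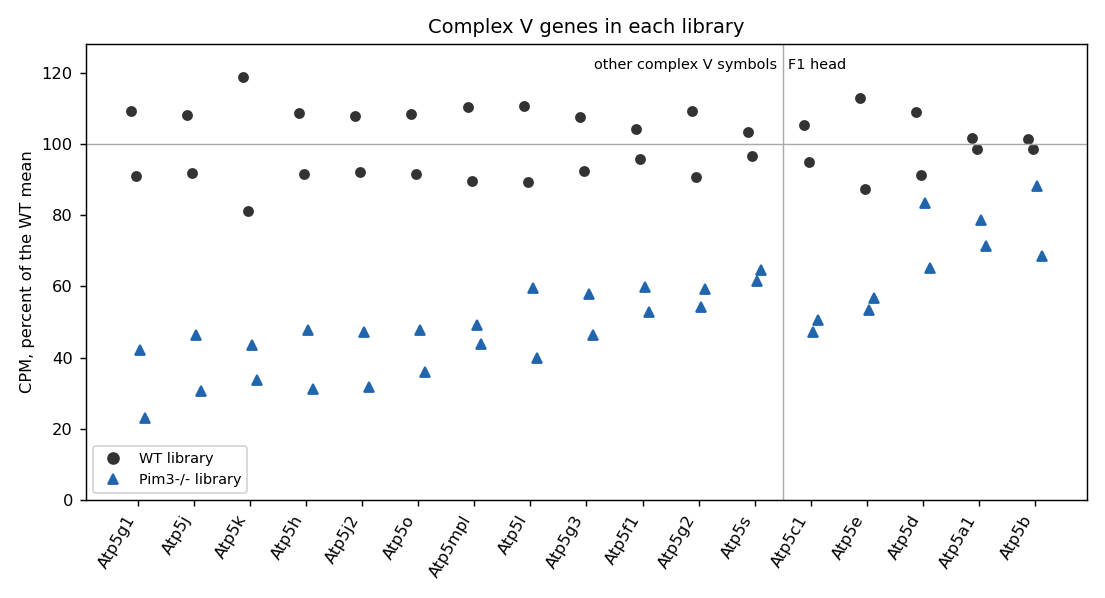
CPM of each complex V gene in each library is given in percent of the mean of the 2 WT libraries (y axis), with genes outside the F1 head at left, including Atp5s, and the 5 genes of the head at right. The Pim3-/- libraries lie on average lowest in Atp5g1 and closest to WT in Atp5b.

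The 3 genes of subunit c encode the same mature protein with different import signals, and the ring that it forms turns with the flow of protons. All 3 passed as lower. Atp5g1 was the lowest of all 83 genes, with 482 and 402 CPM in WT against 186 and 102 CPM in Pim3-/- ESCs, or 442 ± 56.6 CPM in WT and 144 ± 59.1 CPM in Pim3-/- ESCs (SD, n = 2) (log2 fold change -1.61, SE 0.29, adjusted p = 0.00839 in edgeR's quasi-likelihood test). Without Pim3-/- replicate 1 its log2 fold change was -2.11 and without replicate 2 it was -1.25, and without WT replicate 1 or 2 its adjusted p was 0.0932 and 0.0545. Atp5g2 had 548 and 455 CPM against 272 and 297 CPM (-0.82) and Atp5g3 531 and 456 CPM against 286 and 228 CPM (-0.94). Atp5g1 had 87.8% and 88.3% of the counts of Atp5g2 in WT, and 68.3% and 34.5% in Pim3-/- ESCs, so that the Pim3-/- libraries differed from each other by more than replicate 1 did from WT. Per kilobase of the reference transcript, the highest levels of the whole chain in WT were those of Atp5b with 1630, Cox7c with 1488 and Atp5g2 with 1137 CPM per kb. In Pim3-/- ESCs these levels were 1276, 781 and 645 CPM per kb.

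Genes with a short coding sequence were lower than genes with a long one, in the chain as in the whole table. Most subunits are small proteins. Over the 83 genes, which share 4 libraries and are not independent, the log2 fold change and the coding length had a Spearman correlation of 0.34. It was 0.51 over the 75 genes left without the tissue isoforms and the 3 named genes that are not structural subunits. Both sets include Ndufb4c, which has no annotated coding sequence, with a length of 0. Over all 14465 tested coding genes the correlation was 0.33. Among genes of up to 300 coding bases the median was -1.10 for the 24 genes of the chain and -0.71 for all 355 genes. Between 300 and 600 bases the values were -0.95 for 38 genes and -0.49 for 1675. Between 1200 and 2400 bases they were -0.42 for 9 genes, among them Sdha, Atp5b, Atp5a1 and Uqcrc1, and 0.14 for 5195. In each of the 5 bands that held genes of the chain their median lay below that of all genes. Among all genes the fold change was also lower at higher expression. At a mean log2 CPM of 6 to 8, 42 of 51 genes of the chain passed as lower, against 39.1% of all genes there, and above 8, 11 of 16 passed, against 52.9%.

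**Figure D4:**
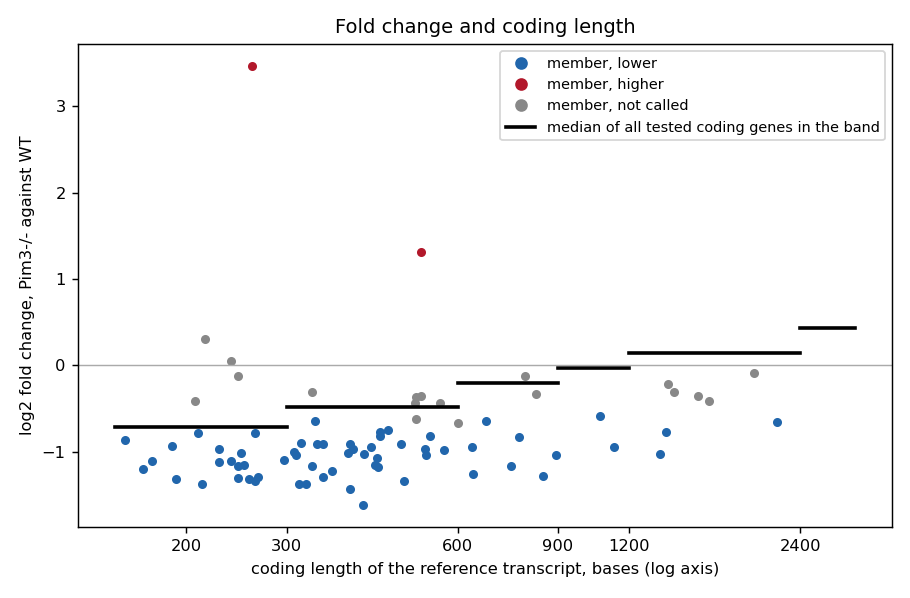
Each point is a tested gene of the chain, with its coding length in bases (x axis, log scale) and its log2 fold change (y axis). Of the 83, 1 is not drawn, and Ndufb4c, which has no annotated coding sequence, is also left out. Black bars mark the median of all tested coding genes in a band of length, from -0.71 at up to 300 bases to 0.44 above 2400 bases, and most genes of the chain lie below them.

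With a smooth trend on transcript length taken out of each library, a setting chosen after the values were seen, 27 of the 83 genes passed as lower, against 12.6% of all genes, and 2 as higher, against 16.2%. The median relative to all genes was then -0.58, and 70 of the 83 were below 0. Among those that passed were Ndufb4, Sdhb, Uqcr10, Cox6b1 and Atp5g1, the lowest gene of each complex. The reference transcript of Atp5g1 has 4660 bases, of which 408 are coding, so this setting treated the gene as a long one. Its log2 fold change went from -1.61 to -1.88, whereas those of the others named shrank, as in Ndufb4 from -1.42 to -0.92. The part of transcript length in the fall of these genes was not tested beyond this setting.

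Near-identical copies limit some values. For 13 of the 88 nuclear genes another gene in the annotation matched the reference transcript at 95% identity or more over at least 50% of its length, and how reads with several places were counted is not given in the sources used here. Ndufs5 had raw counts of 938 and 885 against 719 and 524, and its copy BC002163 had 843 and 886 against 647 and 447. Atp5l has 9 such copies, with summed counts of 156 and 131 in WT against 92 and 73 in Pim3-/- ESCs, while Atp5l itself had 7242 and 6922 against 5436 and 3527. Ndufb4c, with 31, 17, 17 and 12 counts, is a copy of Ndufb4. Values of these genes are uncertain to that extent.

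Other genes of the pathway were counted from lists of known members. Among all tested genes 16.2% passed as lower, or 5.92% with library totals. The 8 subunits and carriers that the name rule missed were all below 0, or 5 of 8 with library totals, and 4 passed as lower, of which 2 did so with library totals and 0 when either WT library was left out (4 and 5 at an unadjusted p under 0.05). These were Atpif1 (-1.50), the inhibitor of the ATP synthase, Usmg5 (-1.31), one of its small subunits, cytochrome c, Cycs (-1.24), and Etfb (-1.12), of the electron transfer flavoprotein. Cyc1, the cytochrome of complex III, had 366 and 321 CPM against 282 and 219 CPM and did not pass (-0.45, or 0.00 with library totals). Of 17 enzymes of the TCA cycle and of pyruvate dehydrogenase, which feed the chain, 9 passed as lower, against 16.2% of all tested genes, with a median of -0.57. With library totals 0 of the 17 passed as lower in edgeR's test, also at an unadjusted p under 0.05, whereas 9 did in DESeq2 with its own size factors. Without WT replicate 1 or 2, 0 passed (2 and 5 at an unadjusted p under 0.05). Suclg1 was lowest (-0.89), and citrate synthase, Cs, had 252 and 257 CPM against 258 and 276 CPM and a log2 fold change of 0.07.

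Of 49 assembly factors of the complexes, 22 passed as lower, against 16.2% of all tested genes, and 1 as higher, against 17.6%, with a median of -0.58. With library totals 8 were lower, against 5.92%, and 3 higher, against 35.8%. Ndufaf8 and Ndufaf2, which help to build complex I, were lowest. Ndufaf8 had 44.96 and 33.7 CPM against 14.9 and 12.1 CPM (log2 fold change -1.54, SE 0.22, adjusted p = 0.0048 in edgeR's quasi-likelihood test), and Ndufaf2 had 45.2 and 37.8 CPM against 18.9 and 11.3 CPM (-1.46). The groups of both were well apart. Cox15, which makes the heme a of complex IV, was the one that passed as higher, with 32.8 and 35.2 CPM against 52.5 and 47.8 CPM (log2 fold change 0.56, SE 0.16, adjusted p = 0.0331 in edgeR's test), but not in the Wald test of DESeq2. When WT replicate 1 or 2 was left out, 0 and 1 of the 49 passed as lower (13 and 21 at an unadjusted p under 0.05).

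Of 29 genes that copy, transcribe or process mitochondrial DNA and RNA, 11 passed as lower, against 16.2% of all tested genes, and 0 as higher, against 17.6% (0 also at an unadjusted p under 0.05 in edgeR's test and 0 in DESeq2), with a median of -0.51. With library totals 2 of the 29 were lower, against 5.92%. Hsd17b10, a part of mitochondrial RNase P, had 167 and 139 CPM against 48.6 and 54.5 CPM and the lowest value (log2 fold change -1.57, SE 0.18, adjusted p = 0.00361 in edgeR's quasi-likelihood test). Slirp, which binds mitochondrial mRNAs, had 161 and 136 CPM against 73.4 and 64.2 CPM (-1.11). Polrmt, the mitochondrial RNA polymerase, had 37.3 and 40.3 CPM against 54.2 and 34.02 CPM with overlapping groups and a log2 fold change of 0.18. Without WT replicate 1 or 2, 0 and 1 of the 29 passed as lower (3 and 7 at an unadjusted p under 0.05). Of the 78 genes of mitochondrial ribosomal proteins, which translate the mitochondrial mRNAs, 65 passed as lower, against 16.2% of all tested genes. With library totals 38 did, against 5.92%. Of the 78, 0 passed as higher, against 17.6% (0 also at an unadjusted p under 0.05 in edgeR's test and 0 in DESeq2). Their median was -0.98, beside -0.94 for the 83 genes of the chain, and without WT replicate 1 or 2, 0 and 3 passed as lower (51 and 59 at an unadjusted p under 0.05).

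Of the nuclear regulators known for respiratory genes, 10 of 12 could be tested, and 0 passed in edgeR's test in either direction. At an unadjusted p under 0.05, 1 passed, and in DESeq2 0 did. Nrf1, the gene of NRF-1, had 83.2 and 83.1 CPM against 63.3 and 67.3 CPM and Gabpa 117 and 136 CPM against 113 and 94.03 CPM. Both were lower without overlap, at log2 fold changes of -0.35 and -0.30 that did not pass and became 0.10 and 0.15 with library totals. Gabpb2, a partner of GABPA, had 33.9 and 35.5 CPM against 43.5 and 61.7 CPM and was nearest to the threshold (log2 fold change 0.60, SE 0.20, adjusted p = 0.0542 in edgeR's quasi-likelihood test). Its values did not overlap, and it passed with library totals. Ppargc1a, the coactivator PGC-1alpha, was listed at 0 in all 4 libraries, and Esrrg had 0, 0, 0 and 3 counts.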

How the data were processed

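The authors deposited raw counts per gene for 4 RNA-seq libraries (2 WT, 2 Pim3-/-), with no normalization. Libraries were made with an mRNA-seq kit from DNase-treated RNA. The study's methods name Cutadapt, Hisat2, mm10 and Ensembl genes, whereas the submitters' processing notes list Trim Galore, STAR, featureCounts and GRCm38. Versions, strand setting and the treatment of reads with several places are not given in the sources used here. The deposited TE counts were not used.

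In edgeR 4.0.16 (R 4.3.3, limma 3.58.1), filterByExpr with a minimum count of 10 and a minimum total of 15 left 18444 of the 31418 genes with a count. These were scaled by TMM factors and compared by the quasi-likelihood test, with p-values adjusted after Benjamini and Hochberg at 0.05. The script was tested on simulated data with 200 changed genes. It recovered 35 of 86 genes with a log2 change of 1 in size and 106 of 114 with 2, with 11 false calls. A gene that did not pass may thus still differ by 2-fold. CPM are per scaled library. Errors written with ± are SDs of 2 libraries, and each SE comes from edgeR's fit. The p-values of edgeR test the difference between the groups, against a spread that is partly shared across genes. Positions, transcript and coding lengths come from GENCODE M21, copies from blastn 2.17.0 and promoters from RefSeq. Alternatives were DESeq2 size factors, library totals, other filters, the Wald test of DESeq2 1.42.0, a replicate block, a length trend and each library left out. Planned tests of mitochondrial genes and of their ratio to nuclear genes gave no value, since all their rows are 0.

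Members and lists were chosen with earlier results of these data known. The text names, per complex, the lowest, the highest and the 3 most abundant genes, calls against the complex's median, isoforms and partners, the c-ring genes, and the extremes of the lists that passed. Other genes were named after their values were seen, and 1 gene that the rule names is not reported here. Intervals and floors cover counting error only.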

Additional observations from a re-analysis of the deposited data

How the results depend on the processing

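The 62 nuclear genes called lower stayed below 0 under every alternative, and 62, 62, 62, 61 and 59 of them passed again with DESeq2 size factors, with the Wald test of DESeq2, with no filter, with a replicate block and with at least 10 counts in every library. With library totals, the genes called lower fell from 2987 to 1092 and those called higher rose from 3246 to 6606, and lower calls became 25 of 83 for the nuclear genes, 10, 1, 2 and 8 for complexes I, II, IV and V, 8 for assembly factors (3 higher) and 2 for genes of mitochondrial DNA expression (1 higher), with 1 regulator higher. Genes below 0 then fell from 79 to 65 of the 83 nuclear genes, from 43 to 27 of 49 assembly factors, from 27 to 16 of 29 genes of mitochondrial DNA expression and from 7 to 1 of 10 regulators. With the length trend taken out, lower calls were 27 for the nuclear genes, 12, 1, 3 and 2 for complexes I to IV, 11 for assembly factors and 7 for genes of mitochondrial DNA expression, and the median relative to all genes was -0.58. It was -1.25 with no filter, where 0 assembly factors were higher, as in the Wald test of DESeq2. With at least 10 counts in every library 5 genes of mitochondrial DNA expression were lower and 1 regulator higher. With 1 library left out, lower calls ran from 5 to 5139 for all genes, 0 to 73 for the nuclear genes, 0 to 34, 0 to 3, 0 to 8, 0 to 11 and 0 to 17 for complexes I to V, 0 to 37 for assembly factors, 0 to 17 for genes of mitochondrial DNA expression and 0 to 3 for regulators. Higher calls ran from 25 to 5383 for all genes, 1 to 2 for the nuclear genes, 0 to 2 for assembly factors, and 0 to 1 for genes of mitochondrial DNA expression and for regulators. The lowest counts came without a WT library, whose partner is then assumed to vary like the other group. The causes of these changes were not tested. The median relative to all genes ran from -1.18 to -0.84.

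Replicate numbers are shared by the groups, and deviations of same-numbered libraries correlated at 0.0698 over 12029 genes. With 1 difference per group this value cannot tell whether the numbers pair the libraries. In the 83 nuclear genes replicate 2 lay below replicate 1 in 81 in WT and in 68 in Pim3-/- ESCs. With the replicate block 61 nuclear genes were lower and 2 higher, and 1 regulator was higher. Leaving mitochondrial rows out of the scaling changed nothing, as all are at 0, and alternatives for the mitochondrial genes and their ratio to nuclear genes gave no value.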

Other observations

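Genes known to respond to low oxygen were higher in the Pim3-/- libraries. A list of 24 such genes was written after the values of some of them had been seen, so its counts are a description. Of the 24, 17 passed as higher in edgeR's quasi-likelihood test, against 17.6% of all tested genes, and 0 as lower (0 also at an unadjusted p under 0.05 and 0 in DESeq2), with a median log2 fold change of 2.07. Without WT replicate 1, 5 passed, and without WT replicate 2, 9 did. Slc2a1, the main glucose transporter, had raw counts of 7436 and 9112 in WT against 56402 and 53783 in Pim3-/- ESCs (2.41). Egln3, a prolyl hydroxylase that marks HIF for decay, had raw counts of 238 and 261 in WT against 1778 and 2007 in Pim3-/- ESCs (2.59), and its paralog Egln1 had raw counts of 196 and 248 in WT against 2391 and 2236 in Pim3-/- ESCs (3.06). Vegfa, the vascular growth factor, had raw counts of 531 and 675 in WT against 3058 and 4305 in Pim3-/- ESCs (2.29), and Ndrg1 had raw counts of 427 and 451 in WT against 3785 and 4377 in Pim3-/- ESCs (2.88). The groups did not overlap in these 5 genes. Higd1a, a small protein that binds complex IV, had raw counts of 1720 and 1609 in WT against 3394 and 3445 in Pim3-/- ESCs (0.70).

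Not all genes of the list moved alike. Hk2, a hexokinase, had raw counts of 2193 and 2865 in WT against 5481 and 753 in Pim3-/- ESCs, so that the Pim3-/- libraries lay on both sides of WT (log2 fold change -0.04, SE 0.69, adjusted p = 0.97 in edgeR's test). Kdm3a had raw counts of 2808 and 3511 in WT against 2158 and 3965 in Pim3-/- ESCs (-0.36), and Fam162a had raw counts of 3174 and 3117 in WT against 5826 and 2861 in Pim3-/- ESCs (0.12), and neither passed. Whether the rise of these genes and that of Ndufa4l2 and Cox4i2 go together was not tested, since all were measured in the same 4 libraries.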
